A study of Homo sapiens with 2 samples.

Results

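The ID family comprises 4 genes, ID1, ID2, ID3 and ID4, and peaks were assigned to a member when the peak midpoint lay inside the gene on hg38 or within 50 kb of it. By this rule 3 of 7687 ab21061 peaks and 2 of 7562 sc8558 peaks belonged to the family, out of 20037 protein-coding genes for which the same assignment was made. The peaks come from chromatin immunoprecipitation and sequencing (ChIP-seq) of NB4, an established acute promyelocytic leukemia line carrying the PML-RARA fusion. The 2 groups, ab21061 and sc8558, are single libraries, with no treatment stated other than fixation. Each was made with its own antibody labelled as against GFI1, a zinc-finger protein that represses genes during blood formation. The protocol text names antibodies to PML/RARα instead, and GFI2 stands in place of GFI1 in the sample title for sc8558. The antibody labels were followed.

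ID proteins carry a helix-loop-helix (HLH) domain but lack the basic region that contacts DNA. They pair with E proteins, the widely expressed basic HLH factors TCF3, TCF4 and TCF12, and keep them from binding DNA, which holds back the differentiation programmes that E proteins drive. ID1, ID2 and ID3 are known as targets of bone morphogenetic protein (BMP) signalling through SMAD factors, and in mouse blood cells Gfi1 is known to repress Id2.

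The family divided into members with a peak of both antibodies and members with none. ID1 had a high-scoring region just upstream of the gene, ID3 had a region across its start that scored low in the ab21061 list and above the median in the sc8558 list, and ID2 and ID4 had 0 peaks in either list within 50 kb. Each list therefore had peaks at 2 of 4 members, ID1 and ID3. Among all protein-coding genes, 31.7% had an ab21061 peak and 32.4% an sc8558 peak by the same rule. A shared region, where peaks of the 2 lists overlap by at least 1 bp, was present at ID1 and at ID3, 2 of 4 members. Of all protein-coding genes 24.3% had one, and of the 3197 protein-coding genes spanning at most 5 kb, the size class of all 4 members and a background chosen after seeing the data, 16.6% had one. The spans of the members are 1222 bp for ID1, 2406 bp for ID2, 1576 bp for ID3 and 4828 bp for ID4. With 4 genes and 1 library for each antibody, no test was made, and the count at the members is a description.

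**Figure D1:**
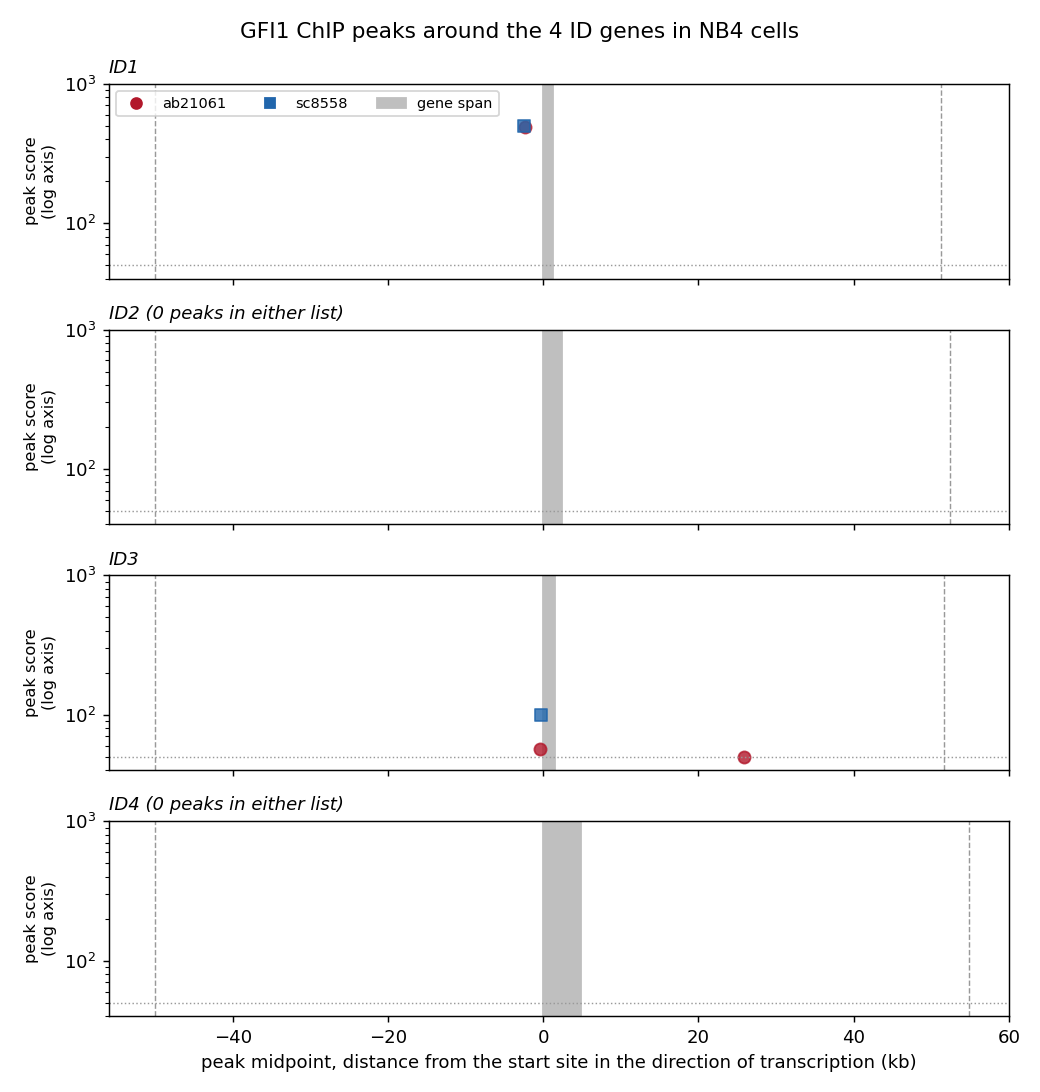
Peak score (log axis) against the distance of the peak midpoint from the start site of each ID gene, in kb and in the direction of transcription. Circles are ab21061 peaks, squares are sc8558 peaks, the grey bar is the gene, dashed lines mark 50 kb on either side and the dotted line a score of 50. The ID1 pair stands at 486.25 and 499.69, the ID3 pair at 57.36 and 100.32, and the ID2 and ID4 windows are empty.

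The stretch of 250 bases before the start of ID3 lay wholly inside the peaks of both antibodies, whereas that of ID1 lay between the gene and the peaks and was not covered by either. Both are shown 5′ to 3′ on the strand of the gene, from RefSeq on GRCh38.p14, because they place the signal relative to the promoter in the 2 members that have any. Capitals mark AATC, the core of the sequence that GFI1 is known to bind, on either strand (GATT where it lies on the other strand). The ID3 stretch is chr1:23559502-23559751 on the minus strand and the ID1 stretch is chr20:31605039-31605288 on the plus strand.
ID3: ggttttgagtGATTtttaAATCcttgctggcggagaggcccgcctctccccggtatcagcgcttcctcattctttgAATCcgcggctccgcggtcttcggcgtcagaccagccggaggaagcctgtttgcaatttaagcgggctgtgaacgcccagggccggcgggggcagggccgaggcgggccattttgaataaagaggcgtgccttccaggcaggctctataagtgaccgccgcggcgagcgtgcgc
ID1: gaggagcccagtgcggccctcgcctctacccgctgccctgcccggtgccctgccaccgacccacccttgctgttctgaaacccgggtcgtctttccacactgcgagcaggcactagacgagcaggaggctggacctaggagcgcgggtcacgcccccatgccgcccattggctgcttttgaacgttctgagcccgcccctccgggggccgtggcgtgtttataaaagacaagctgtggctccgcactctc

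The ID3 stretch held 3 AATC matches, with first bases at -240, -232 and -174 counted back from the start site, and the match at -240 formed part of a longer form, AAATCA, at -241. The ID1 stretch held 0 matches. The stretches of ID2 and ID4, which no peak covered, held 1 match each. AATC is short and common, and 61.8% of the 15843 protein-coding genes with a sequence in the table had at least 1 match in the same stretch. The share with 3 matches was not counted, so the number at ID3 has no background here. Of the 240 stretches with a shared peak at the promoter window, 77.9% had it. For AAATCA the shares were 18.8% of the 240 and 8.56% of all. The 8-base form TAAATCAC was in 0 of the 4 ID stretches, in 0.417% of the 240 and in 0.379% of all. Median GC content was 61.2% in the 240 and 62.4% in all, against 62.0% at ID3, 66.0% at ID1, 69.2% at ID2 and 78.8% at ID4.

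Among motifs of other factors, CANNTG, the E-box bound by E proteins, occurred 0 times at ID1 and ID3 and 1 time each at ID2 and ID4, and was in 57.8% of all stretches. CACGTG, a form of the E-box, was in 7.84% of all and GGCGCC, a GC-rich element bound by SMAD1 and SMAD5, in 21.3%. Neither occurred in any of the 4, nor did TGTGGT, the RUNX element, which was in 8.89% of all. GTCT, the core bound by SMAD4, occurred 3 times at ID1, 2 times at ID2, 2 times at ID3 and 1 time at ID4, and was in 76.0% of all. GGAA, the ETS core, occurred 1, 4, 3 and 1 times in the same order of genes and was in 92.5% of all. CCAAT occurred 1 time at ID1, 3 times at ID2, 0 times at ID3 and 1 time at ID4 (34.5% of all). TATAAA occurred 2 times at ID1, overlapping on opposite strands, and 1 time at ID4, with none at ID2 or ID3 (9.23% of all). Each share is of stretches with at least 1 match and gives no background for the number of matches. Both strands were searched, AATC lies within AAATCA and TAAATCAC, and CACGTG is one case of CANNTG. The bases under the ID1 peaks were not analysed here, since the sequences used stop 250 bases before each start.

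ID1, on chromosome 20 from 31605289 to 31606510 (plus strand), encodes the ID protein known for holding progenitor cells undifferentiated. Its ab21061 peak ran from 31602426 to 31603557, was 1132 bp wide and scored 486.25. Its sc8558 peak ran from 31602233 to 31603458, was 1226 bp wide and scored 499.69. The score is the authors' own value for each peak from their peak caller, and it ranks peaks within a list. It cannot be compared in level between libraries. The ab21061 peak ranked 228 of 7687, in the top 2.97% of its list and rank 5 of 177 on the chromosome. The sc8558 peak ranked 192 of 7562, in the top 2.54% and rank 4 of 181 on the chromosome. Both were wider than the median peak of their lists, which was 776 bp for ab21061 and 745.5 bp for sc8558.

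The ID1 peaks had 1033 bp in common, 91.3% of the ab21061 peak and 84.3% of the sc8558 peak, and their midpoints were 146 bp apart. The joint region from 31602233 to 31603557 began 3056 bp and ended 1732 bp before the ID1 start, so it reached neither the start site nor the gene. It overlapped no gene in the RefSeq table. The nearest protein-coding gene to both peaks was ID1, at 2.30 kb from the ab21061 midpoint and 2.44 kb from the sc8558 midpoint. The other protein-coding genes within 50 kb of ID1 were HM13, which encodes signal peptide peptidase and ends 35.7 kb away, and COX4I2, a cytochrome c oxidase subunit gene 31.4 kb away. The lncRNA LOC105372588 lies between the region and ID1, with 0.094 kb between it and ID1.

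Regions so placed, and pairs so high in both lists, were counted over all protein-coding genes. The score cutoffs are those of ID1 itself, and the 5 kb upstream window was not fixed beforehand. The counts therefore describe where ID1 stands and test nothing. A shared region with both midpoints up to 5 kb upstream of the start was found at 349 of the 15843 protein-coding genes whose strand was known, or 2.2%. There were 350 such pairs of overlapping peaks, with median scores of 111 in the ab21061 list and 110 in the sc8558 list, and 20 of them reached the ID1 scores in both lists. By the 50 kb rule, 1.41% of all protein-coding genes had a shared region that reached both ID1 scores. A region counts here for every gene within 50 kb of it, so these genes do not stand for separate regions. The ID1 pair itself was also the highest of HM13 and of COX4I2. Among all 4962 overlapping pairs 165 did so, or 3.33%.

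**Figure D2:**
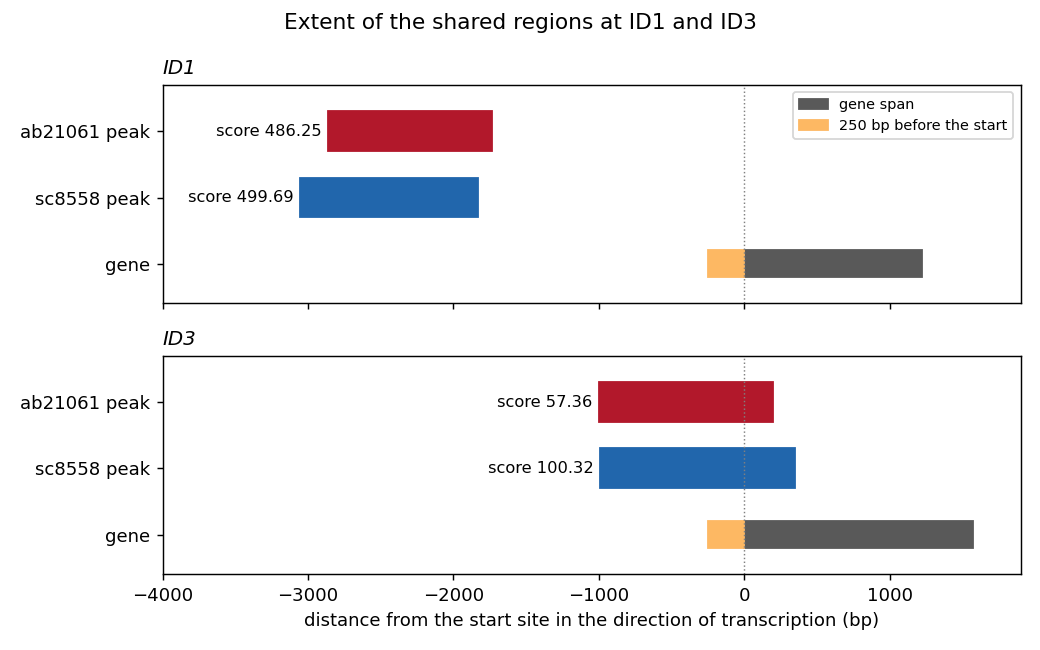
Extent of the overlapping ab21061 peak (upper bar) and sc8558 peak (lower bar) at ID1 and ID3, in bp from the start site in the direction of transcription, drawn to scale with the gene (grey) and the 250 bp before its start (orange). At ID1 both peaks end 1732 bp or more before the start, whereas at ID3 both peaks extend across the start.

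ID3, on chromosome 1 from 23557926 to 23559501 (minus strand), encodes an ID protein studied chiefly in lymphocytes. Its ab21061 peak at the start ran from 23559304 to 23560502, was 1199 bp wide and scored 57.36. Its sc8558 peak ran from 23559155 to 23560494, was 1340 bp wide and scored 100.32. The ab21061 peak ranked 6259 of 7687 and the sc8558 peak 2820 of 7562, so the ab21061 peak stood near the floor of its list, where scores begin at 50.01, and the sc8558 peak in the upper part of its own. The peaks had 1191 bp in common, 99.3% of the ab21061 peak and 88.9% of the sc8558 peak, and their midpoints were 78.5 bp apart. The joint region from 23559155 to 23560502 reached from 1001 bp before the start to 346 bp inside the gene. An annotated lncRNA, LOC124903876, also spans it.

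Both ID3 peaks at the start were wide. The ab21061 peak was among the widest 12.9% of its list and the sc8558 peak among the widest 7.86%, and at ID1 these shares were 15.5% and 10.6%. Of the 759 ab21061 peaks scoring from 55 to below 60, 35.3% were overlapped by an sc8558 peak, against 100% of the 67 scoring from 450 to below 520, the range that holds the ID1 peak. Both ranges were drawn around the members' own ab21061 scores and were not fixed beforehand, so these shares are a description. The sc8558 scores of the 271 pairs in the lower range had a median of 71.0 and quartiles of 59.5 and 89.9, and 45 of them, 16.6%, were at or above the 100.32 of ID3. In the range of ID1 the median sc8558 score of 69 pairs was 432, and 18 pairs were at or above 499.69.

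Promoters under a shared peak were uncommon. The promoter window of the RefSeq table, 250 bases before to 50 after the start, was overlapped by a shared peak of each list at 1.51% of the 15843 protein-coding genes, ID3 among them. The common part of 225 overlapping pairs lay on such a window, with median scores of 117 in both lists. Of the 225 pairs, 7.56% scored below ID3 in the ab21061 list and 35.6% in the sc8558 list, so the ID3 pair was low among them for ab21061 and below the median for sc8558.

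A second ab21061 peak belonged to ID3 by the rule, from 23533254 to 23533896, 25.9 kb downstream of the ID3 start. It scored 50.12, at rank 7657 of 7687, and was 643 bp wide. The nearest sc8558 peak was 25.3 kb away. Its midpoint was 2.34 kb from E2F2, the gene of a cell cycle transcription factor, and lay upstream of the start of that gene, so it was nearer to E2F2 than to ID3.

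ID2, on chromosome 2 from 8682056 to 8684461, encodes the ID protein needed for natural killer and innate lymphoid cells in mouse. ID4, on chromosome 6 from 19837370 to 19842197, encodes a member studied mainly in neural cells. Neither had a peak of either list within 100 kb. The nearest ab21061 and sc8558 peaks to ID2 overlapped each other, lay 371 kb upstream and scored 70.07 and 62.76. Of all protein-coding genes 21.5% were as far or farther from an ab21061 peak and 20.9% from an sc8558 peak. The nearest peaks to ID4 also overlapped each other, lay 484 kb downstream and scored 125.32 and 64.89, and 16.1% and 15.7% of protein-coding genes were as far or farther. Over all protein-coding genes the median distance to the nearest peak was 120 kb for ab21061 and 116 kb for sc8558. At the depth of these libraries, which is unknown, a lower signal at ID2 and ID4 would not have been listed.

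No peak lay close to the limit of 50 kb. The first peaks beyond it were 121 kb downstream of ID1, 3.87 kb from BCL2L1, the gene of an inhibitor of apoptosis, where a shared pair scored 129.18 and 197.74. Beyond ID3 the first ab21061 peak was 180 kb downstream with a score of 213.49, nearest to TCEA3, and the first sc8558 peak was 167 kb upstream with a score of 79.4, nearest to ELOA.

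**Figure D3:**
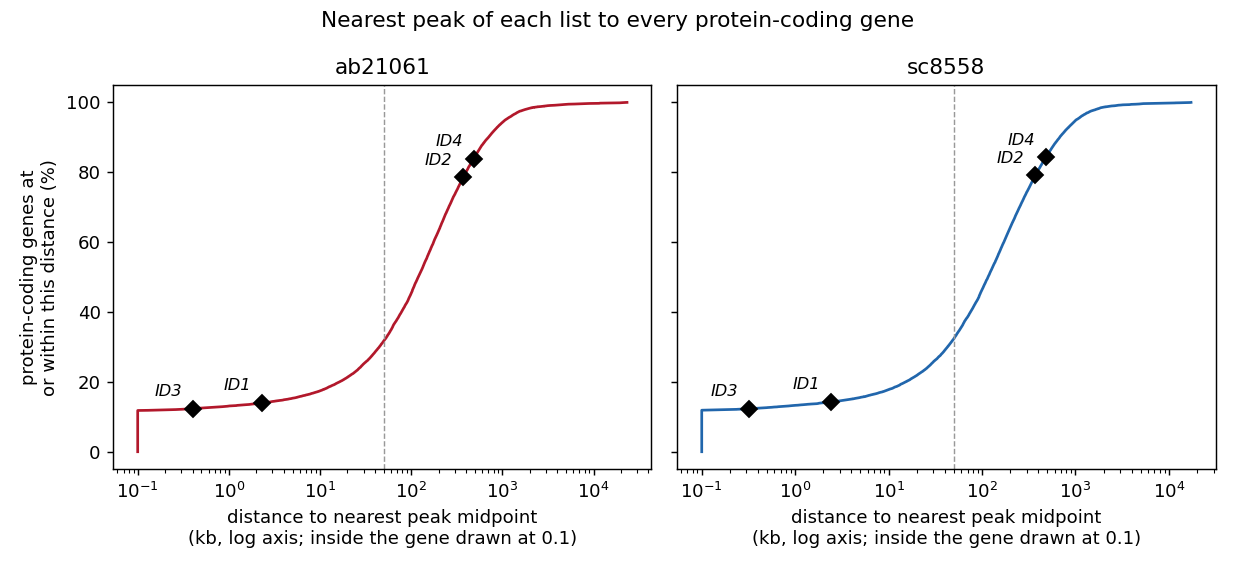
Share of all protein-coding genes (vertical axis, %) whose nearest ab21061 peak (left) or sc8558 peak (right) lies at or within the distance on the horizontal axis (kb, log axis), with the 4 ID genes as diamonds and 50 kb as a dashed line. For ab21061, ID3 and ID1 lie at 0.402 and 2.30 kb, where 87.7% and 86.1% of genes were as far or farther. ID2 and ID4 lie beyond the median, at 371 and 484 kb, where 21.5% and 16.1% were as far or farther.

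The E proteins, with which ID proteins pair, and other factors that pair with E proteins were examined by the same rule. Of all protein-coding genes 24.3% had a shared region. Of the 3 E protein genes 1 did. TCF12 had 4 shared regions across its 373221 bp, the highest inside the gene with scores of 228.24 and 278.79, whereas TCF3 and TCF4 had 0. Of 30 genes for tissue-restricted basic HLH factors, which pair with E proteins, 4 had a shared region (13.3%). Many of the 30 span at most 5 kb, and of all protein-coding genes of that size 16.6% had a shared region. HAND2, a regulator of heart development, had one 8.51 kb upstream of its start with scores of 149.27 and 171.35. LYL1, a blood stem cell factor related to TAL1, had one 14.2 kb upstream with scores of 64.91 and 69.71. NHLH1, a neuronal factor, had one 28.3 kb upstream with scores of 139.39 and 71.51, and the same pair was the highest of COPA. MSC had one 11.8 kb from the gene with scores of 89.85 and 108.91. TAL1, the regulator of blood formation, had 0.

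Of 11 genes for basic HLH repressors, a separate group that silences transcription by binding DNA, 2 had a shared region (18.2%), in both with its midpoint within 1 kb of the start. HES1, a Notch target, had it with a midpoint 0.616 kb inside the gene, at 162.05 and 130.49. BHLHE41, a repressor of the circadian clock, had it 0.892 kb upstream, at 127.65 and 163.55.

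Of 18 genes of BMP and SMAD signalling, the pathway known to induce ID1, ID2 and ID3, 7 had a shared region (38.9%). Among receptors, BMPR1A had 3, the highest inside the gene at 180.4 and 208.21. ACVRL1 had 1 at 190.59 and 199.14, 49.7 kb from the gene. The same pair was the highest of ACVR1B, a gene outside the list with peaks of both antibodies inside it. ACVR1 had 1 at its start, with a midpoint 0.0668 kb upstream, at 93.41 and 72.17. Among ligands, BMP6 had 2, the higher 27.7 kb upstream at 145.35 and 104.57, and BMP2 had 1 at 113.68 and 137.95, 49.0 kb away. SMURF1, a ubiquitin ligase that acts on SMAD proteins, had 1 at 141.88 and 100.81. The seventh, SMAD7, an inhibitor of the pathway, had 1 at 81.04 and 66.64. The factors that carry the BMP signal, SMAD1, SMAD5, SMAD9 and SMAD4, had 0.

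Of 18 other partners and regulators of ID proteins 8 had a shared region (44.4%). ELK4, an ETS factor of the ternary complex group, had one at 516.69 and 514.5, 2.56 kb beyond the end of the gene. RB1, the retinoblastoma gene whose product binds ID2, had 4, the highest 24.0 kb beyond the gene at 370.72 and 388.46. Its relative RBL2 had 1 at 297.39 and 358.85. ETS1 had 2, the higher inside the gene at 192.85 and 188.04. STAT3 had 2, the higher at 96.21 and 81.19, and ETS2 had 1 at 86.99 and 95.25. STAT5A had 1 at 123.93 and 63.71, and ATF3 had 1 at 61.36 and 55.36. EGR1 had 0. The 5 lists together held 80 genes, of which 22 had a shared region (27.5%), near the share of all protein-coding genes. Longer genes have wider windows, and several of these genes, unlike the ID genes, span over 100 kb.

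**Figure D4:**
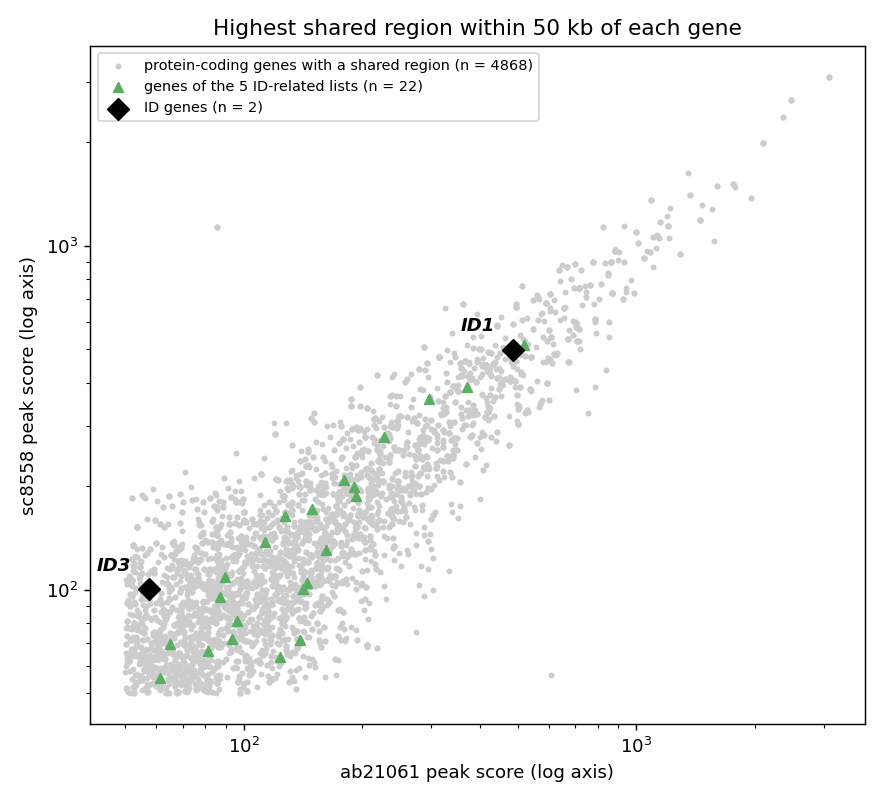
Score of the highest shared region within 50 kb of each protein-coding gene in the ab21061 list (horizontal, log axis) and the sc8558 list (vertical, log axis), for 4868 genes (grey), 22 genes of the 5 lists (triangles) and the 2 ID genes that have one (diamonds). ID1 lies in the upper part of the cloud beside ELK4, and ID3 at its low ab21061 edge.

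Genes with the scores most like those of ID1 were sought among 530 protein-coding genes of at most 5 kb with a shared region and no peak in common with an ID gene. Likeness was the distance between log2 scores over the 2 libraries. The nearest was TNNC1, a cardiac troponin gene, at a distance of 0.0778 with scores of 509.39 and 486.23. The second was C11orf86 at 0.0870 with 476.43 and 472.12. The other three, HINT2, OR13J1 and SPAG8, lay at 0.1645 and shared 1 region with scores of 539.22 and 476.24. In all 5 the region was farther from the gene than at ID1, between 19.2 and 44.7 kb.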

How the data were processed

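ChIP-seq peaks of NB4 cells were taken as deposited, 1 list for each antibody. Bowtie2 2.2.9, MACS 1.4.2 and the hg38 build are named in the submitters' processing notes. For the options, the read filters and the peak-calling control, the sources used here give nothing. The score of each peak is the authors' deposited value, on the MACS scale a log-transformed p-value that grows with significance. Peaks were listed per library, and depth is unknown.

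Starts were made 1-based. Gene spans came from RefSeq (GRCh38.p14, the same build), and strand and promoter sequence were matched for 15843 of 20037 protein-coding genes and all 4 members. No genome sequence was used, so bases under the ID1 peaks are not analysed here. The code that assigns peaks was tested on simulated data. Genes named were all members, genes nearest to their peaks, up to 6 per list by the worse score, and the 5 genes most like ID1. SMAD7, STAT5A, ATF3, ACVR1B and COPA fall outside this rule, and genes with 0 shared regions were named after their values were seen. Members and lists were chosen with earlier results of these data known. With 1 library per antibody no test was made and no p-value computed. Python 3.11.15, numpy 2.4.6, pandas 2.3.3 and matplotlib 3.10.9 were used.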

Additional observations from a re-analysis of the deposited data

How the results depend on the processing

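No paired analysis was possible because each antibody has 1 library and no result comes from a test, and for the same reason none was left out. Of 24 values under the alternatives fixed beforehand, 21 stayed within 1.5 times the reported count. The other 3 came from keeping only peaks with a score of 100 or more in each list, which enters fewer peaks by construction. The ab21061 peaks at ID genes were then 1, the shared regions 1 and the members with a shared region 1, since the ID3 peak of ab21061, at 57.36, drops out and its sc8558 peak, at 100.32, stays just inside. Windows of 10 or 100 kb, any base of a peak within 50 kb, assignment to the nearest protein-coding gene only, an overlap of 50% of both peaks and midpoints within 500 bp each left 2 shared regions at 2 members. Assignment to the nearest gene, like the 10 kb window, removed the ab21061 peak beside E2F2, leaving 2. Chosen after seeing the data, a background of protein-coding genes spanning at most 5 kb had a shared region at 16.6% and one of genes of every type at 19.1%, in place of 24.3%, and adding the 50 bases after the start left 3 members with AATC. Unknown depth limits any reading of the empty windows at ID2 and ID4.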
